A study of Homo sapiens with 15 samples.

Results

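The comparison set cultures given the highest dose of cyanidin-3-rutinoside (C3R) against cultures given the lowest dose. FCH cultures received 500 µM free fatty acids with 100 µM C3R, and FCL cultures received 500 µM free fatty acids with 25 µM C3R. The fatty acids were common to both groups, so the groups differ in the C3R dose as labelled. The 6 libraries compared, 3 FCH and 3 FCL, were chosen by their group labels from the 15 of the series. The others were 3 libraries of the middle dose, 50 µM C3R with the same fatty acids (FCM), 3 with fatty acids alone (FFA) and 3 blank controls (NC). All were bulk messenger RNA libraries of a culture labelled HepG2, a human hepatoma line widely used as a hepatocyte model. Each culture is 1 line, and the labels do not say how separately the replicates were grown, so a p-value here measures the spread between these cultures. Values are the deposited TPM, a length-normalised share of transcripts, in which a level can be compared between genes. How deeply each library was sequenced is unknown, since TPM do not carry it. In bulk RNA, fewer cells of a type and less RNA per cell cannot be told apart.

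C3R is an anthocyanin, a plant pigment made of cyanidin joined to the sugar rutinose. Cells make cholesterol from acetyl-CoA through mevalonate, squalene and lanosterol. The transcription factors SREBP1 and SREBP2 drive the genes of fatty acid and cholesterol synthesis and of LDL uptake when sterol in the endoplasmic reticulum is low. The liver X receptors, NR1H2 and NR1H3, are nuclear receptors for oxysterols and drive genes of cholesterol export and lipogenesis. NRF2 drives genes of detoxification, glutathione and NADPH supply. The study's stated question was how C3R lowers lipid in fat-loaded cells, and the comparison of doses asks which transcripts differed between the highest and the lowest dose.

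Some properties of the libraries touch every result below. FCH libraries had between 11724 and 11832 genes at 1 TPM or more, and FCL libraries between 11459 and 12251. In 12775 genes, the pattern of decimals showed that FCH replicate 3 had been pulled towards the other FCH libraries, keeping 41.6% of its distance from their mean, a step that no sample label mentions. The median SD of a gene on the log2(TPM + 1) scale was 0.108 among FCH libraries and 0.262 among FCL libraries, and 0.146 among FCH libraries with that step undone. The labels number the libraries 1 to 15 in group order, with FCM replicate 3 as 12 and the FCH libraries as 13 to 15. These last 4 libraries stood apart from the other 11 in transcripts typical of neural tissue, a list of 13 genes chosen after their values were seen, except SPARC. MBP, the myelin basic protein, had 1.92, 1.43 and 1.15 TPM in FCH libraries, against 7.95, 11.5 and 10.7 TPM in FCL libraries, and 11.1, 18.6 and 2.56 TPM in the FCM libraries. The 13 genes summed to between 2.11 and 3.23 TPM in FCH libraries, against between 33.4 and 40.8 TPM in FCL libraries. The dose of FCH and its place among libraries 12 to 15 therefore cannot be told apart from FCH and FCL alone. FCM replicate 3 is the 1 library of another group in that run of numbers, and a fit with a term for libraries 12 to 15 takes its size from the FCM libraries. That fit subtracts the deviation of FCM replicate 3 from the other FCM libraries, so its differences lean on 1 library. Of the 15 libraries, FCM replicate 3 had the lowest share of TPM in the mitochondrial genome (6.03%) and in its top 50 genes (28.6%). Its deviation correlated with FCH minus FCL over genes at 0.30 (Pearson) and 0.03 (Spearman).

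**Figure D1:**
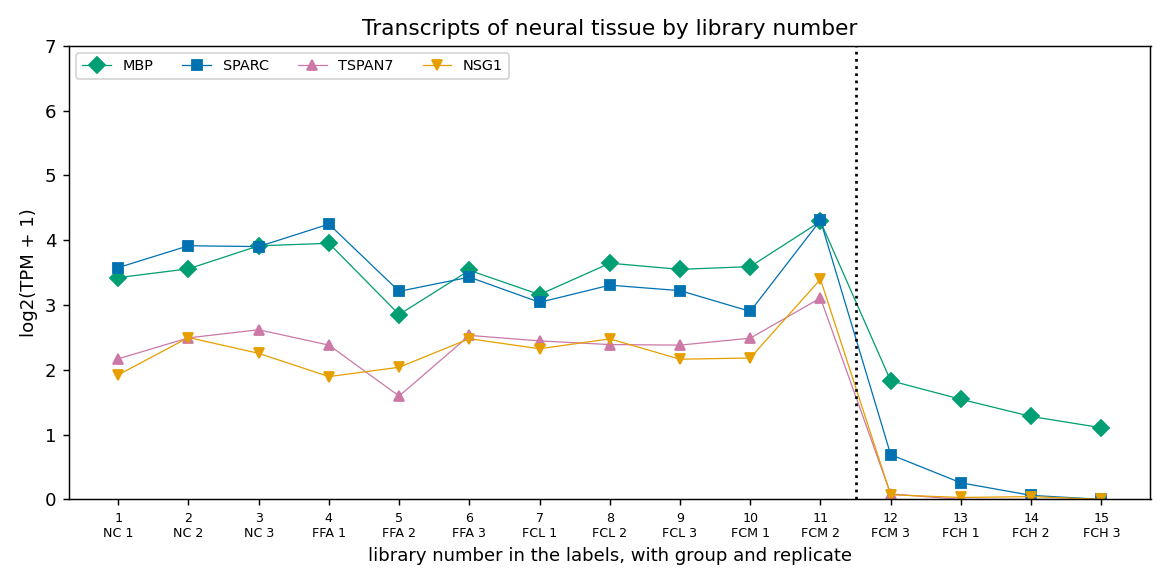
Levels of MBP, SPARC, TSPAN7 and NSG1 as log2(TPM + 1) in each of the 15 libraries, in the order of their library numbers, with the group and replicate below each number. Libraries 1 to 11 lie high and libraries 12 to 15, right of the dotted line, lie low.

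The defining hepatocyte markers went against the cell label. APOB was at most 0.09 TPM, TTR at most 0.32 TPM, AFP at most 0.13 TPM, HNF4A at most 0.64 TPM and albumin (ALB) at most 1.67 TPM in any of the 15 libraries. APOA1 reached 14.7 TPM and SERPINA1 14.2 TPM. Of 10 hepatocyte markers, 4 passed the filter on low values, and the list summed to between 22.3 and 26.2 TPM in FCH libraries, against between 25.5 and 33.8 TPM in FCL libraries. KRT7, a keratin of simple epithelia, lay between 1626 and 2781 TPM, while the other biliary markers KRT19, SOX9, EPCAM and CFTR were at or below 1.60 TPM. Of 9 stellate cell markers 6 passed the filter. That list summed to between 64.0 and 82.4 TPM in FCH libraries, against between 58.9 and 64.8 TPM in FCL libraries. Of 7 endothelial markers none passed the filter. Of 8 leukocyte markers CD68 and CSF1R passed, and PTPRC, the pan-leukocyte antigen, was at most 0.01 TPM. The cultures are called by their group names below.

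Of 12950 genes with at least 1 TPM in at least 3 of the 15 libraries, 10 differed between FCH and FCL at an adjusted p under 0.05 (limma, Benjamini-Hochberg over all 12950), which is 0.0772% of the genes tested. Of these, 5 rose (0.0386%) and 5 fell (0.0386%) in FCH. At an unadjusted p under 0.05 there were 1675 genes, or 12.9%. At an adjusted p under 0.1 there were 85 genes (0.656%), 41 higher (0.317%) and 44 lower (0.34%) in FCH. In 919 genes every FCH library was above every FCL library (7.1%), and in 1792 every FCH library was below every FCL library (13.8%). The median difference over all tested genes was -0.05. Every difference given here is FCH minus FCL on the log2(TPM + 1) scale, with its standard error (SE). On this scale changes of weakly expressed genes come out too small. The count of 10 moved with the libraries in the fit. It was 105 without FCM replicate 3, the 10 among them, and 23 without FCL replicate 1. It lay at 1 to 3 without any 1 of FCH replicates 1, 2 and 3, FCL replicates 2 and 3, FCM replicate 1, FFA replicates 1, 2 and 3 and NC replicates 1 and 3. With the step on FCH replicate 3 undone it was 2, ENSG00000268790 and the signal recognition particle copy Metazoa_SRP. At an adjusted p under 0.1, 7 genes were then higher and 5 lower, against 41 and 44 as deposited. No member of the cholesterol synthesis, lipogenesis, NRF2, autophagy, splicing or immediate early lists was among them. With a term for libraries 12 to 15 the count at an adjusted p under 0.05 was 571 (4.41%), 108 higher (0.834%) and 463 lower (3.58%), of which 2 were among the 10. In that fit the median difference over all tested genes was -0.24, so lists are read against that value where the term is named.

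NR1H2, which encodes liver X receptor beta, was the 1 lipid regulator that passed. It had 178, 172 and 166 TPM in FCH libraries, against 87.1, 91.2 and 104 TPM in FCL libraries, and every FCH library lay above every other library of the series. NR1H2 rose by 0.86 (SE 0.14, adjusted p = 0.0363). The middle dose had 99.5, 96.3 and 131 TPM, so FCM replicate 3, library 12, lay above the other FCM libraries but below every FCH library. NR1H2 had 91.3, 104 and 72.2 TPM in FFA libraries and 78.5, 83.6 and 81.04 TPM in NC libraries. The adjusted p was 0.0506 with the step on FCH replicate 3 undone, and with the term for libraries 12 to 15 the difference was 0.45 with an adjusted p of 0.211. NR1H3, which encodes liver X receptor alpha, had 65.1, 72.6 and 69.996 TPM in FCH libraries, against 71.2, 78.2 and 78.9 TPM in FCL libraries, a difference of -0.14 (95% interval -0.37 to 0.10, adjusted p = 0.659). Of the 12 listed receptors and targets 7 were tested, and NR1H2 was the 1 called. The classic target ABCA1, the cholesterol exporter, was not tested because its TPM was too low. ABCG1, a second exporter, had 4.20, 3.24 and 3.34 TPM in FCH libraries, against 2.84, 3.41 and 3.12 TPM in FCL libraries, a difference of 0.15 (95% interval -0.19 to 0.49, adjusted p = 0.753) that was -0.19 with the term for libraries 12 to 15. APOE, a lipoprotein ligand, had 21.99, 23.7 and 21.8 TPM in FCH libraries, against 18.9, 14.8 and 17.9 TPM in FCL libraries, groups that did not overlap, with a difference of 0.37 (SE 0.17, adjusted p = 0.368). LPCAT3, which puts polyunsaturated chains into phospholipids, had 55.1, 53.9 and 57.2 TPM in FCH libraries, against 59.8, 101 and 74.7 TPM in FCL libraries, also without overlap but lower in FCH, at -0.46 (SE 0.16, adjusted p = 0.237). The targets lay on both sides of 0, and none passed.

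PTMS, which encodes the small acidic nuclear protein parathymosin, rose by 0.77 (SE 0.13, adjusted p = 0.0363). It had 520.3, 534 and 535 TPM in FCH libraries, against 338, 277 and 320.005 TPM in FCL libraries. FCM libraries had 324, 292 and 436 TPM, with library 12 the highest. The term for libraries 12 to 15 brought the difference to 0.26 with an adjusted p of 0.342. ENSG00000268790, a protein-coding locus with no symbol, rose by 2.50 (SE 0.33, adjusted p = 0.0116). It had 13.1, 8.22 and 12.01 TPM in FCH libraries, against 1.23, 1.69 and 0.543 TPM in FCL libraries. Its levels were 5.68, 8.96 and 4.56 TPM in FCM libraries, 0.0232, 1.77 and 0.743 TPM in FFA libraries and 21.5, 13.96 and 19.7 TPM in NC libraries, so FCH lay between the cultures with fatty acids alone and the blank controls. It was called in 22 of 27 alternatives, the term for libraries 12 to 15 among them.

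LINC00958, a long noncoding RNA, fell to 3.34, 3.41 and 3.85 TPM in FCH libraries, against 7.08, 7.42 and 6.46 TPM in FCL libraries. The difference was -0.82 (SE 0.13, adjusted p = 0.0363). FCM libraries lay between them at 5.23, 5.50 and 5.33 TPM, and here library 12 did not stand apart from the other FCM libraries. In the fit with the term for libraries 12 to 15 the difference was -0.81 with an adjusted p of 0.0560. ENSG00000237550, RPL9 pseudogene 9, fell to 317, 275 and 302 TPM in FCH libraries, against 630.2, 536 and 513 TPM in FCL libraries. Its difference of -0.90 was -0.42 with the term for libraries 12 to 15. As a near copy of a ribosomal protein gene it can share reads with its parent, so its value is uncertain. ENSG00000265401, a locus with no symbol, fell to 0.783, 1.86 and 1.03 TPM in FCH libraries, against 16.6, 18.8 and 15.9 TPM in FCL libraries. Its FCM values of 15.4, 39.4 and 4.16 TPM put library 12 nearest to FCH, and with the term the difference was -0.73 with an adjusted p of 0.469.

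Metazoa_SRP (ENSG00000237611), a copy of the RNA of the signal recognition particle, was listed at 6.35, 3.22 and 4.12 TPM in FCH libraries and at 0 in FCL libraries and in all other libraries of the series. It met the filter on low values only through the FCH libraries, where it is high. Its zeros elsewhere leave it almost no spread there. That it was called in all 26 alternatives in which it was tested therefore adds little. ENSG00000256364, annotated as antisense to MLEC, had 6.82, 10.4 and 9.91 TPM in FCH libraries and was listed at 0 in FCL libraries. It had 0, 0.84 and 4.22 TPM in FCM libraries, with library 12 the highest, and 2.06, 0 and 4.79 TPM in NC libraries. Its difference of 3.31 was 1.36 with the term for libraries 12 to 15. Since the use of strand in counting is not given in the sources used here, its reads cannot be told apart from those of MLEC. H2BC20P, a histone pseudogene, was listed at 0 in FCH libraries, against 5.09, 2.81 and 2.03 TPM in FCL libraries. It was also at 0 in NC replicates 1 and 3. ENSG00000290183, a locus with no symbol, fell to 1.67, 2.08 and 1.38 TPM in FCH libraries, against 5.48, 10.6 and 5.70 TPM in FCL libraries. Library 12 deviated from the other FCM libraries towards FCH in 6 of the 10 called genes, against 46.8% of all tested genes.

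**Figure D2:**
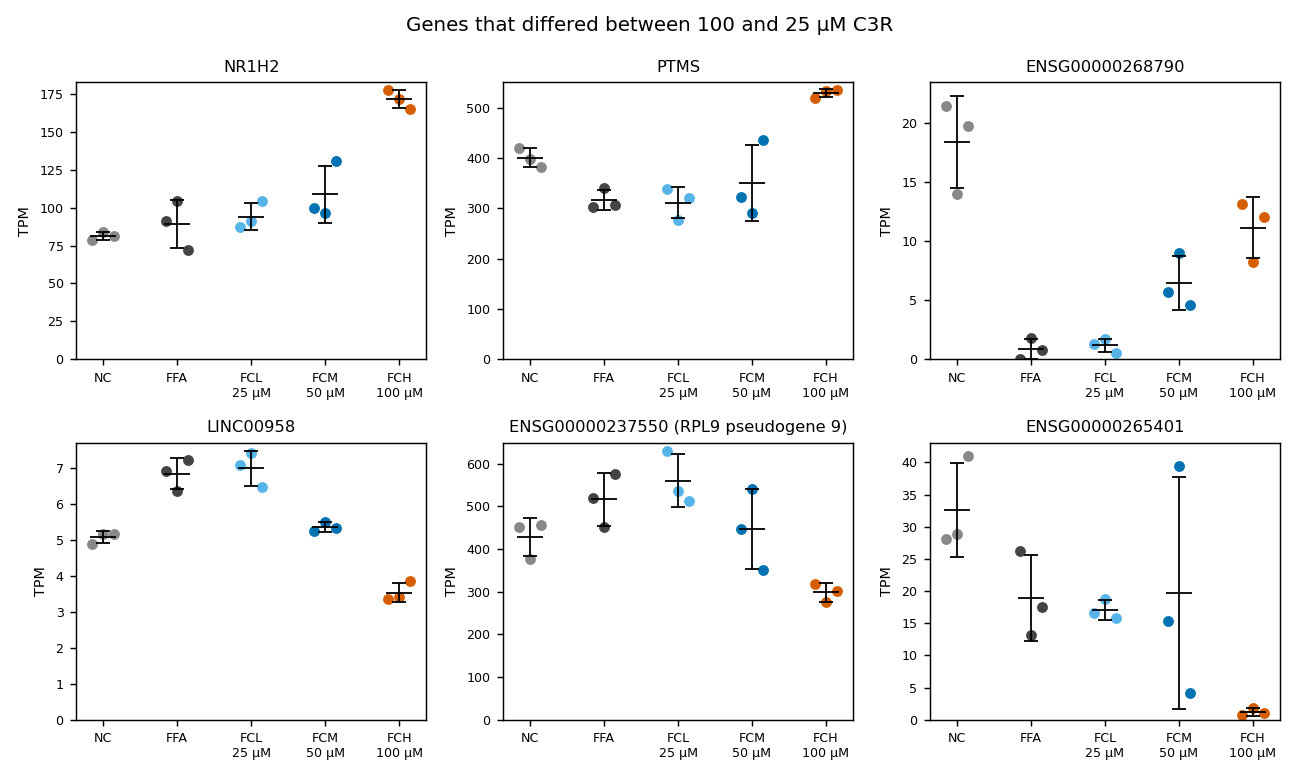
TPM of 6 of the 10 called genes in each library, by group from NC and FFA through 25, 50 and 100 µM C3R. Points are libraries and bars are the mean and SD of 3. NR1H2 and PTMS stand highest and LINC00958, ENSG00000237550 and ENSG00000265401 lowest at 100 µM, while ENSG00000268790 at 100 µM lies below the NC libraries.

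The next genes in each direction did not pass the threshold of 0.05 but had no overlap between groups. Among the higher ones, CSTF3, a subunit of the factor that cleaves the 3′ end of pre-mRNA, had 10.9, 18.3 and 15.3 TPM in FCH libraries, against 8.54, 5.23 and 5.33 TPM in FCL libraries, a difference of 1.11 (SE 0.20, adjusted p = 0.0618). HYPK, a chaperone of the N-terminal acetyltransferase complex, had 26.6, 27.3 and 27.8 TPM in FCH libraries, against 19.4, 13.7 and 14.4 TPM in FCL libraries. PHB1, prohibitin of the inner mitochondrial membrane, had 595, 595 and 593 TPM in FCH libraries, against 411, 442 and 409.6 TPM in FCL libraries, a difference of 0.50 (SE 0.09, adjusted p = 0.0884). FCM replicate 3 had 502 TPM of PHB1 and the other FCM libraries 409.5 and 399 TPM. POLR1C, a subunit shared by RNA polymerases I and III, differed by 0.58 and TYMP, thymidine phosphorylase, by 0.86, each with an adjusted p of 0.0900. Fibrillarin (FBL), the methyltransferase of ribosomal RNA, had 871, 934 and 934 TPM in FCH libraries, against 759, 539.7 and 597 TPM in FCL libraries, at an adjusted p of 0.09. FBL was singled out after its values were seen.

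Among the lower ones, BTG1, an antiproliferative factor, had 23.7, 37.8 and 29.6 TPM in FCH libraries, against 70.3, 64.6 and 48.7 TPM in FCL libraries, a difference of -0.995 (SE 0.20, adjusted p = 0.09). TFDP2, a dimerisation partner of the E2F factors, had 3.49, 3.70 and 3.69 TPM in FCH libraries, against 15.3, 12.5 and 6.52 TPM in FCL libraries, a difference of -1.35 (SE 0.26, adjusted p = 0.09). Its FCL values spread more widely than its FCH values. METTL2A, a methyltransferase of transfer RNA, differed by -0.89 (SE 0.17, adjusted p = 0.0884). PROM2, a membrane protein of cell protrusions, had 0.212, 0.382 and 0.320 TPM in FCH libraries, against 1.59, 1.53 and 1.12 TPM in FCL libraries. Its FCM values of 0.332, 0.232 and 0.272 TPM lay within the FCH range. SPARC, a matrix-binding glycoprotein, had 0.194, 0.0437 and 0 TPM in FCH libraries, against 7.23, 8.89 and 8.33 TPM in FCL libraries. With 6.47, 18.8 and 0.614 TPM in FCM libraries, SPARC followed the library number, as MBP did.

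The largest block of lipid genes to lie lower in FCH was cholesterol synthesis. No member passed the threshold of 0.05. All 23 listed genes of the mevalonate and sterol arms were tested, and in 17 of them every FCH library was below every FCL library (against 13.8% of all tested genes), while in none was every FCH library above. Their median difference was -0.43, against -0.05 over all tested genes. ACAT2 and HSD17B7 had an adjusted p under 0.1, but none of the 23 did with the step on FCH replicate 3 undone. The count wholly lower was also 17 with the step on FCH replicate 3 undone. It was 17 without FCH replicate 3 too, but leaving out a library cannot lower a count of genes without overlap. In those fits 1435 and 1993 of all 12950 genes lay wholly lower. Under median-of-ratios scaling the count was 13, and 2 members lay wholly higher. Of all 12950 genes, 1595 lay wholly lower and 1532 wholly higher under that scaling. With the term for libraries 12 to 15 the median was -0.62, against -0.24 over all genes, and 3 of the 23 were called, all lower (3.58% of all genes were called lower in that fit). The list was chosen with earlier results of these data known.

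To show the control regions of this block, the 250 bases before the transcription start of 3 of its members were taken from RefSeq (GRCh38.p14). The 3 were picked from members that lay wholly lower in FCH and whose window holds the box marked below. Capitals mark CCAAT on either strand (ATTGG on the other), the box bound by NF-Y, a factor that works beside SREBP in many sterol genes. HSD17B7 lies at chr1:162790452-162790701 on the plus strand, FDPS at chr1:155308616-155308865 on the plus strand and MSMO1 at chr4:165327419-165327668 on the plus strand.
HSD17B7: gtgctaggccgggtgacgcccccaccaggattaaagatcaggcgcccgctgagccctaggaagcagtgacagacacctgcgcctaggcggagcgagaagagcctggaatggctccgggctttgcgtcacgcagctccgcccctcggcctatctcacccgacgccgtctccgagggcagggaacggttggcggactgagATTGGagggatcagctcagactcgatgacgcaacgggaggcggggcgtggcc
FDPS: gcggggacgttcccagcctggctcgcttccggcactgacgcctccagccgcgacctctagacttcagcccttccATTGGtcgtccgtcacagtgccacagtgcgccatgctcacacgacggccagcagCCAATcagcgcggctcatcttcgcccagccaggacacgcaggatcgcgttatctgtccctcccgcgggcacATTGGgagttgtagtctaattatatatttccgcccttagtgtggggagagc
MSMO1: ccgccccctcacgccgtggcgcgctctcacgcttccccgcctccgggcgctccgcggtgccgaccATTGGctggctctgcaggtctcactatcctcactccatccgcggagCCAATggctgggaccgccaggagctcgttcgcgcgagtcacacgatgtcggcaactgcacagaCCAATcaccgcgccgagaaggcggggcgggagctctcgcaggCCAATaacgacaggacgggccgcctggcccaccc
CCAAT was present in 13 of the 18 cholesterol synthesis genes that had a window (72.2%), against 33.0% of all 27305 windows. It was also in 10 of 20 windows of NRF2 target genes (50%) and 7 of 14 of lipogenesis and desaturation genes (50%). The 27305 windows include genes not tested here. One spelling of the SREBP site, TCACNCCAC on either strand, was in none of the 18 windows and in 0.875% of all windows, which says only that these letters are not in these windows. A match describes the sequence and does not show binding.

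In the mevalonate arm, 7 of 10 genes lay wholly lower in FCH. ACAT2, the cytosolic thiolase that opens the pathway, had 38.9, 35.5 and 38.8 TPM in FCH libraries, against 60.03, 70.9 and 48.3 TPM in FCL libraries, a difference of -0.63 (SE 0.14, adjusted p = 0.0934). HMGCS1, the synthase of HMG-CoA, had 6.18, 5.86 and 6.72 TPM in FCH libraries, against 8.52, 9.53 and 8.30 TPM in FCL libraries, at -0.43 (SE 0.24, adjusted p = 0.475). The groups did not overlap, but the 95% interval of -0.94 to 0.08 holds 0. IDI1, the isomerase of isopentenyl diphosphate, had 12.6, 13.7 and 14.4 TPM in FCH libraries, against 44.97, 25.4 and 19.5 TPM in FCL libraries, a difference of -1.01 (SE 0.36, adjusted p = 0.25). FDPS, the farnesyl diphosphate synthase whose promoter is printed above, was the most abundant at 1007, 1029 and 1043 TPM in FCH libraries, against 1493, 1263 and 1325 TPM in FCL libraries, a difference of -0.40 (SE 0.10, adjusted p = 0.12). FDFT1, squalene synthase and the first step committed to sterols, had 338, 329 and 346 TPM in FCH libraries, against 743, 562 and 495 TPM in FCL libraries, a difference of -0.81 (SE 0.19, adjusted p = 0.112). PMVK, MVD and GGPS1 overlapped between the groups. The difference of PMVK was 0.23 (95% interval -0.04 to 0.50, adjusted p = 0.478) and that of MVD -0.01 (95% interval -0.45 to 0.43, adjusted p = 0.993).

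In the sterol arm, 10 of 13 genes lay wholly lower in FCH. SQLE, the squalene epoxidase, had 11.5, 10.98 and 13.9 TPM in FCH libraries, against 23.9, 23.9 and 18.7 TPM in FCL libraries, a difference of -0.82 (SE 0.20, adjusted p = 0.113). CYP51A1, the lanosterol demethylase, had 18.3, 15.7 and 17.8 TPM in FCH libraries, against 28.7, 29.6 and 22.8 TPM in FCL libraries, at -0.61 (SE 0.20, adjusted p = 0.204). MSMO1, the methylsterol oxidase, had the largest difference of the block at -1.41 (SE 0.38, adjusted p = 0.135). It had 7.33, 8.79 and 9.05 TPM in FCH libraries, against 40.1, 20.6 and 16.2 TPM in FCL libraries, and its 4 CCAAT boxes are printed above. The FCL libraries spread from 16.2 to 40.1 TPM, which gives MSMO1 the larger standard error. HSD17B7, a sterol ketoreductase, had 16.6, 15.4 and 18.4 TPM in FCH libraries, against 28.9, 32.98 and 25.05 TPM in FCL libraries, at -0.75 (SE 0.15, adjusted p = 0.09), the lowest p of the block. ERG28, the scaffold of the demethylating enzymes, differed by -0.57 (SE 0.14, adjusted p = 0.112). NSDHL, DHCR7 and EBP, which work on the sterol ring, differed by -0.46, -0.49 and -0.28. LBR, TM7SF2 and SC5D overlapped between the groups. At the middle dose 15 of the 23 genes had a mean between those of FCH and FCL, against 38.3% of all tested genes. In the mevalonate arm this held for 5 of 10. It held for 77 of the 85 genes with an adjusted p under 0.1. A wider gap between FCH and FCL leaves more room for a mean between them, and the FCM mean includes library 12. These shares therefore do not show an order by dose. The median difference of FCM from FCL was -0.27 over the 23 genes, against -0.08 over all tested genes.

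**Figure D3:**
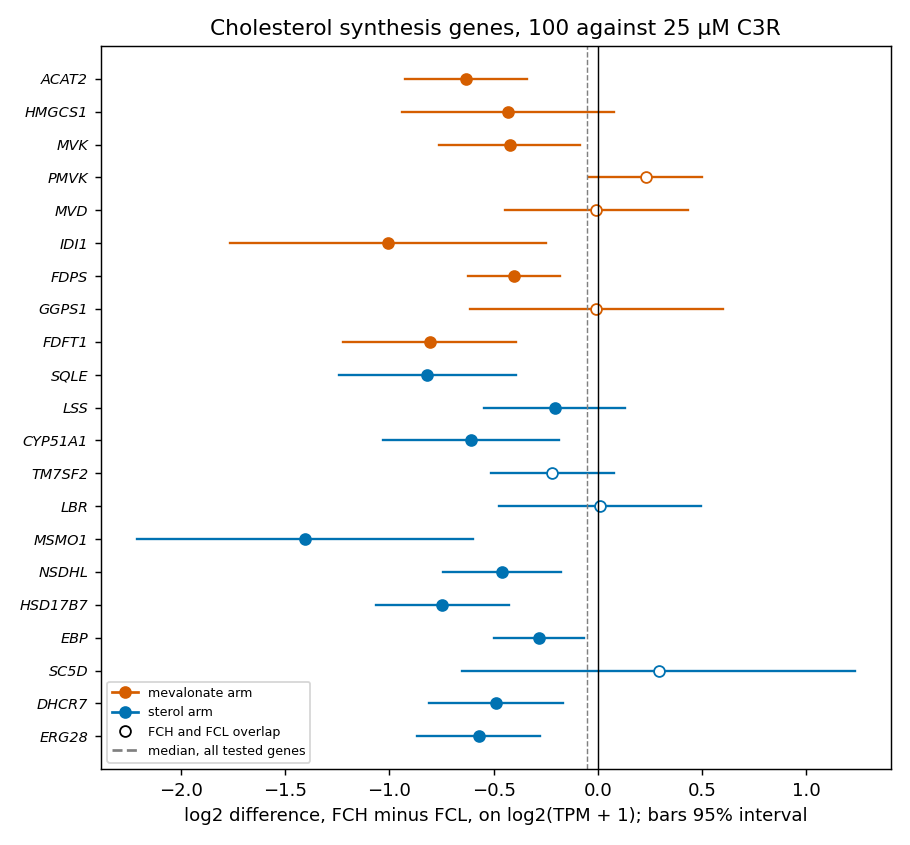
Difference between FCH and FCL on the log2(TPM + 1) scale, with its 95% interval, for 21 of the 23 cholesterol synthesis genes in pathway order. Filled points are genes whose FCH and FCL libraries did not overlap. Of the 21, 15 are filled and left of 0, with MSMO1 and IDI1 farthest out.

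Among genes that sense sterol or take up LDL, 11 of 12 tested differed by less than 0, against 7613 of all 12950 genes. Their median was -0.15, against -0.05 over all tested genes. Of the 12, 3 lay wholly lower (against 13.8% of all tested genes), none wholly higher, and none was called. With the term for libraries 12 to 15 the median was -0.78, against -0.24 over all genes, and 3 members were called lower (3.58% of all genes). INSIG1, which holds the sterol sensor in the endoplasmic reticulum, had 39.7, 46.5 and 41.8 TPM in FCH libraries, against 113, 65.2 and 51.97 TPM in FCL libraries, a difference of -0.76 (SE 0.30, adjusted p = 0.287), and FCL replicate 1 lay far above the other FCL libraries. SREBF2, which encodes SREBP2, had 148, 127 and 136 TPM in FCH libraries, against 149, 178 and 163 TPM in FCL libraries, at -0.25 (95% interval -0.61 to 0.10, adjusted p = 0.569). SREBF1 differed by -0.13 (95% interval -0.52 to 0.25, adjusted p = 0.814) and overlapped between the groups. Both were called lower in the fit with the term, SREBF2 at -0.91 (adjusted p = 0.0376) and SREBF1 at -0.93 (adjusted p = 0.0337). Over the list, library 12, which sets the term, lay above the other FCM libraries by a median of 0.53, against 0.21 over all tested genes.

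Among lipogenesis and desaturation genes, 9 of 15 tested lay wholly lower in FCH (against 13.8% of all tested genes) and none wholly higher, with a median difference of -0.33. None was called. With the term for libraries 12 to 15 the median was -0.53, against -0.24 over all genes, and 5 members were called lower (3.58% of all genes), among them FASN at -1.52, ACSS2 at -1.03 and FADS2 at -0.92. Over the list, library 12, which sets the term, lay above the other FCM libraries by a median of 0.33, against 0.21 over all tested genes. SCD, the delta-9 desaturase that makes oleate, had 319, 353 and 346 TPM in FCH libraries, against 521, 799 and 517 TPM in FCL libraries, a difference of -0.82 (SE 0.18, adjusted p = 0.0942). ACSS2, which makes cytosolic acetyl-CoA from acetate, had 48.4, 37.9 and 46.7 TPM in FCH libraries, against 79.99, 72.4 and 64.5 TPM in FCL libraries, a difference of -0.70 (SE 0.15, adjusted p = 0.09). FASN, the fatty acid synthase, had 515, 341 and 419 TPM in FCH libraries, against 624, 537 and 572 TPM in FCL libraries, at -0.46 (95% interval -0.95 to 0.03, adjusted p = 0.424). FADS2 differed by -0.41 and ELOVL1 by -0.32, both without overlap. ACACA, the acetyl-CoA carboxylase that commits carbon to fatty acids, overlapped between the groups at -0.26 (95% interval -0.56 to 0.05, adjusted p = 0.478). ELOVL6 had 1.02, 7.78 and 15.3 TPM in FCH libraries, against 1.27, 1.96 and 1.01 TPM in FCL libraries, so its FCH libraries differed among themselves more than the groups did, and it differed by 1.47 (95% interval -0.98 to 3.93, adjusted p = 0.642).

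Other genes of the 20-gene lipid panel did not pass. ABCA1, APOB, CD36 and MTTP were not tested because of low TPM. FGF21, a hormone of fasting and amino acid stress, had 9.42, 6.86 and 8.75 TPM in FCH libraries, against 15.02, 12.6 and 21.1 TPM in FCL libraries without overlap, a difference of -0.87 (SE 0.25, adjusted p = 0.162). Its FCM values were 14.9, 11.6 and 6.40 TPM, with library 12 the lowest and below every FCH library, and with the term for libraries 12 to 15 the difference was 0.070 with an adjusted p of 0.935. CPT1A, which passes long-chain fatty acids into mitochondria, differed by -0.26 (95% interval -0.59 to 0.06, adjusted p = 0.493). PDK4, which restrains glucose oxidation, had 49.01, 68.4 and 62.1 TPM in FCH libraries, against 106, 77.6 and 64.2 TPM in FCL libraries, at -0.44 (95% interval -1.01 to 0.12, adjusted p = 0.518). ANGPTL4, an inhibitor of lipoprotein lipase, had 821, 884 and 769 TPM in FCH libraries, against 736, 714 and 840.02 TPM in FCL libraries, at 0.11 (95% interval -0.21 to 0.43, adjusted p = 0.808). FABP3, a fatty acid binding protein of muscle, had 58.9, 114 and 77.5 TPM in FCH libraries, against 65.95, 113 and 79.7 TPM in FCL libraries, at -0.06 (95% interval -0.73 to 0.60, adjusted p = 0.965). PLIN2, a coat of lipid droplets, differed by -0.01 (95% interval -0.49 to 0.48, adjusted p = 0.993) and DGAT2, which makes triglyceride, by -0.18 (95% interval -0.53 to 0.16, adjusted p = 0.691). FABP1, the liver fatty acid binding protein, had 2.22, 1.53 and 1.99 TPM in FCH libraries, against 1.38, 1.03 and 1.44 TPM in FCL libraries, low but without overlap, at 0.35 (95% interval -0.30 to 1.00, adjusted p = 0.691). The signs of FABP3 and PLIN2 turned under median-of-ratios and quantile scaling.

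Most NRF2 target genes, 22 of 27, differed by less than 0, against 7613 of all 12950 genes. All 27 listed were tested, none was called, 15 lay wholly lower in FCH (against 13.8% of all tested genes) and none wholly higher, and the median difference was -0.36. Under median-of-ratios scaling 11 lay wholly lower, against 1595 of all 12950 genes. The term for libraries 12 to 15 gave the list a median of -0.29, against -0.24 over all genes, so the list then lay close to the median of all genes. In that fit 1 member was called higher (0.834% of all genes), the thioredoxin TXN at 1.05, and 2 lower (3.58% of all genes). EPHX1, the microsomal epoxide hydrolase, had 198, 186 and 194 TPM in FCH libraries, against 235, 284 and 268 TPM in FCL libraries, a difference of -0.44 (SE 0.10, adjusted p = 0.0942). NQO1, the quinone reductase, had 343, 286 and 310.5 TPM in FCH libraries, against 407, 514 and 408 TPM in FCL libraries, at -0.49 (SE 0.11, adjusted p = 0.0983). HMOX1, heme oxygenase 1, had 48.3, 49.9 and 45.5 TPM in FCH libraries, against 88.8, 65.6 and 64.4 TPM in FCL libraries, at -0.58 (SE 0.19, adjusted p = 0.221). GSR, glutathione reductase, had 34.99, 35.3 and 36.3 TPM in FCH libraries, against 46.7, 68.96 and 45.4 TPM in FCL libraries, at -0.56 (SE 0.15, adjusted p = 0.139). AKR1C1, AKR1C2 and AKR1C3, reductases of steroids and carbonyls, differed by -0.87, -0.64 and -0.48, and as near-identical copies can share reads. In the fit with the term AKR1C1 was at -1.07, while AKR1C2 and AKR1C3 turned to 0.37 and 0.25. PGD, which makes NADPH in the pentose phosphate pathway, differed by -0.34. GCLM, the modifier subunit of glutathione synthesis, had 3.86, 2.38 and 3.81 TPM in FCH libraries, against 4.46, 10.3 and 3.87 TPM in FCL libraries, close at the edge, at -0.64 (95% interval -1.30 to 0.02, adjusted p = 0.399). TXNRD1, TXN, PRDX1, GCLC and FTH1 overlapped between the groups. FTL, the light chain of ferritin, had 7617, 8157 and 7810.1 TPM in FCH libraries, against 11295, 9140.2 and 9873 TPM in FCL libraries, at -0.36 (SE 0.15, adjusted p = 0.319), and the term turned the difference to 0.10.

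ME1, the cytosolic malic enzyme, belongs to both the NRF2 and the lipogenesis lists and had 4.33, 4.27 and 4.82 TPM in FCH libraries, against 6.60, 9.92 and 6.78 TPM in FCL libraries, a difference of -0.66 (SE 0.23, adjusted p = 0.25). The difference of ME1 was -0.05 (adjusted p = 0.956) with the term for libraries 12 to 15. Its promoter and that of GCLM are shown because they hold the core of the antioxidant response element that NRF2 binds. Capitals mark TGACNNNGC on either strand in the 250 bases before the start (RefSeq, GRCh38.p14), ME1 at chr6:83431052-83431301 on the minus strand and GCLM at chr1:93909431-93909680 on the minus strand.
ME1: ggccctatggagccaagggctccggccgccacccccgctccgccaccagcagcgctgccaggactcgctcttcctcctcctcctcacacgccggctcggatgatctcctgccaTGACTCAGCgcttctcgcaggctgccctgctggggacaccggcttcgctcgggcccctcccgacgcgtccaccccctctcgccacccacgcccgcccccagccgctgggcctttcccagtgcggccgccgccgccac
GCLM: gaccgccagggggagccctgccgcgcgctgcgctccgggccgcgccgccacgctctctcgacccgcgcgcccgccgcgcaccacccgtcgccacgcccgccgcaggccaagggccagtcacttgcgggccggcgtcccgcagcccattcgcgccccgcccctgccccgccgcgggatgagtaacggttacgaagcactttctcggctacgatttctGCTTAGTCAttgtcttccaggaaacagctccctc
The core was in 5 of the 20 NRF2 target genes that had a window (25%), against 11.0% of all windows, as a description of sequence.

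Autophagy and lysosome genes lay mostly on the same side of 0, with 27 of 32 below it, against 7613 of all 12950 genes. All 32 were tested, none was called, 16 lay wholly lower in FCH (against 13.8% of all tested genes) and none wholly higher, with a median difference of -0.24. Under the term for libraries 12 to 15 the median was -0.49, against -0.24 over all genes, and 2 members were called lower (3.58% of all genes). LIPA, the lysosomal acid lipase that frees cholesterol from its esters, had 19.5, 20.97 and 21.5 TPM in FCH libraries, against 35.8, 52.9 and 32.8 TPM in FCL libraries, a difference of -0.91 (SE 0.19, adjusted p = 0.09). FCM libraries had 31.4, 32.9 and 22.4 TPM of LIPA, with library 12 nearest to FCH, and with the term the difference was -0.41. GABARAP, which coats autophagosomes, had 282, 325 and 306 TPM in FCH libraries, against 411, 710.5 and 392 TPM in FCL libraries, at -0.67 (SE 0.17, adjusted p = 0.113). WIPI1, which binds the forming autophagosome, had 11.9, 13.4 and 12.5 TPM in FCH libraries, against 23.1, 23.97 and 15.4 TPM in FCL libraries, at -0.66 (SE 0.17, adjusted p = 0.113). The glycosidase HEXA, the cathepsin CTSA and the cholesterol carrier NPC2 differed by -0.48, -0.53 and -0.36. SQSTM1, the autophagy receptor p62 and also counted among NRF2 targets, had 1448, 1463 and 1315 TPM in FCH libraries, against 1847, 1837 and 1748 TPM in FCL libraries, at -0.36 (95% interval -0.73 to 0.01, adjusted p = 0.397). NPC1, GAA, BECN1 and GABARAPL2 overlapped between the groups.

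Stress programmes of the endoplasmic reticulum were mixed. Of 22 tested chaperone and unfolded protein response genes, 9 lay wholly lower (against 13.8% of all tested genes) and 1 wholly higher (against 7.1%), with a median of -0.19. XBP1, a transcription factor of that response, had 116, 99.2 and 106 TPM in FCH libraries, against 182, 151 and 132 TPM in FCL libraries, a difference of -0.52 (SE 0.15, adjusted p = 0.175). P4HB, the disulfide isomerase, had 749, 729 and 718 TPM in FCH libraries, against 889, 1052 and 924 TPM in FCL libraries, at -0.38 (SE 0.11, adjusted p = 0.179). HSPA5, the central chaperone, overlapped at -0.28 (95% interval -0.91 to 0.34, adjusted p = 0.743), and SEL1L, an adaptor of protein disposal, lay wholly higher at 0.71 (SE 0.31, adjusted p = 0.339), a difference that was -0.0019 with the term for libraries 12 to 15. Of 27 tested genes of the ATF4 response 6 lay wholly lower (against 13.8%) and 1 wholly higher (against 7.1%), with a median of -0.29. ATF4 had 383, 365 and 357 TPM in FCH libraries, against 447, 500.2 and 434 TPM in FCL libraries, at -0.32 (SE 0.11, adjusted p = 0.239), and DDIT4, an inhibitor of mTORC1, was the higher one with 534, 579.8 and 519.9 TPM in FCH libraries, against 423, 376 and 447 TPM in FCL libraries, at 0.39 (SE 0.13, adjusted p = 0.199). None of either list was called without the term. In the fit with the term 3 genes of the chaperone list, P4HB among them at -0.74 (adjusted p = 0.0334), and 1 of the ATF4 list were called lower (3.58% of all genes), and the medians were -0.19 and -0.34, against -0.24 over all genes.

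Most splicing factors, 17 of 23, differed by more than 0, against 5331 of all 12950 genes. Of 23 tested splicing factors, 8 lay wholly higher in FCH (against 7.1% of all tested genes) and 1 wholly lower, with a median difference of 0.27. None was called, against 3 called higher under median-of-ratios scaling, where 43 of all 12950 genes were called higher. SRSF7 had 72.2, 70.2 and 73.03 TPM in FCH libraries, against 42.1, 52.6 and 39.5 TPM in FCL libraries, a difference of 0.68 (SE 0.14, adjusted p = 0.09). HNRNPH1 had 133, 138 and 127 TPM in FCH libraries, against 67.4, 101 and 63.8 TPM in FCL libraries, at 0.80 (SE 0.20, adjusted p = 0.113). SRSF3 had 171, 133 and 143 TPM in FCH libraries, against 45.5, 116 and 59.4 TPM in FCL libraries, at 1.11 (SE 0.36, adjusted p = 0.199). Library 12 had 151 TPM of SRSF3, within the FCH range, and the other FCM libraries 65.5 and 48.5 TPM. SRSF2 had 177, 113 and 139 TPM in FCH libraries, against 83.1, 91.6 and 83.6 TPM in FCL libraries, and 165 TPM in library 12, against 97.99 and 94.9 TPM in the other FCM libraries. With the term for libraries 12 to 15 the differences of SRSF3 and SRSF2 turned to -0.30 and -0.07, those of SRSF7 and HNRNPH1 were 0.40 and 0.35, and the median of the list was -0.19, against -0.24 over all genes. Over the list, library 12 differed from the other FCM libraries by a median of 0.22, against 0.21 over all tested genes. HNRNPC, an RNA-binding protein of introns, was the lower one with 703, 655 and 686 TPM in FCH libraries, against 761, 949.97 and 798 TPM in FCL libraries, at -0.29 (SE 0.10, adjusted p = 0.223).

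Of 19 tested immediate early genes, 4 lay wholly higher (against 7.1% of all tested genes) and 1 wholly lower (against 13.8%), with a median of 0.13, and none was called. The count of 4 was 11 under median-of-ratios scaling, 3 with the step on FCH replicate 3 undone and 6 without FCH replicate 3. The last could not have fallen, since leaving out a library cannot lower a count of genes without overlap. Of all 12950 genes, 1532, 741 and 1058 lay wholly higher in these settings, in that order, against 919 with none of these changes. IER2 had 909.6, 733 and 789 TPM in FCH libraries, against 541, 431 and 587 TPM in FCL libraries, a difference of 0.65 (SE 0.13, adjusted p = 0.09). JUN, a subunit of AP-1, had 109.9, 129.6 and 112 TPM in FCH libraries, against 80.6, 69.9 and 77.8 TPM in FCL libraries, at 0.62 (SE 0.13, adjusted p = 0.0923). FCM libraries had 129.6, 128 and 148 TPM of JUN, above every FCL library and above 2 of the 3 FCH libraries, and the FCM mean was the highest of the doses. FOS had 1242, 1237 and 1238 TPM in FCH libraries, against 729, 1005 and 1058 TPM in FCL libraries, at 0.43 (SE 0.16, adjusted p = 0.275), which turned to -0.16 with the term for libraries 12 to 15. MYC and EGR1 overlapped between the groups. The median of the list was -0.25 with the term for libraries 12 to 15, against -0.24 over all genes.

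**Figure D4:**
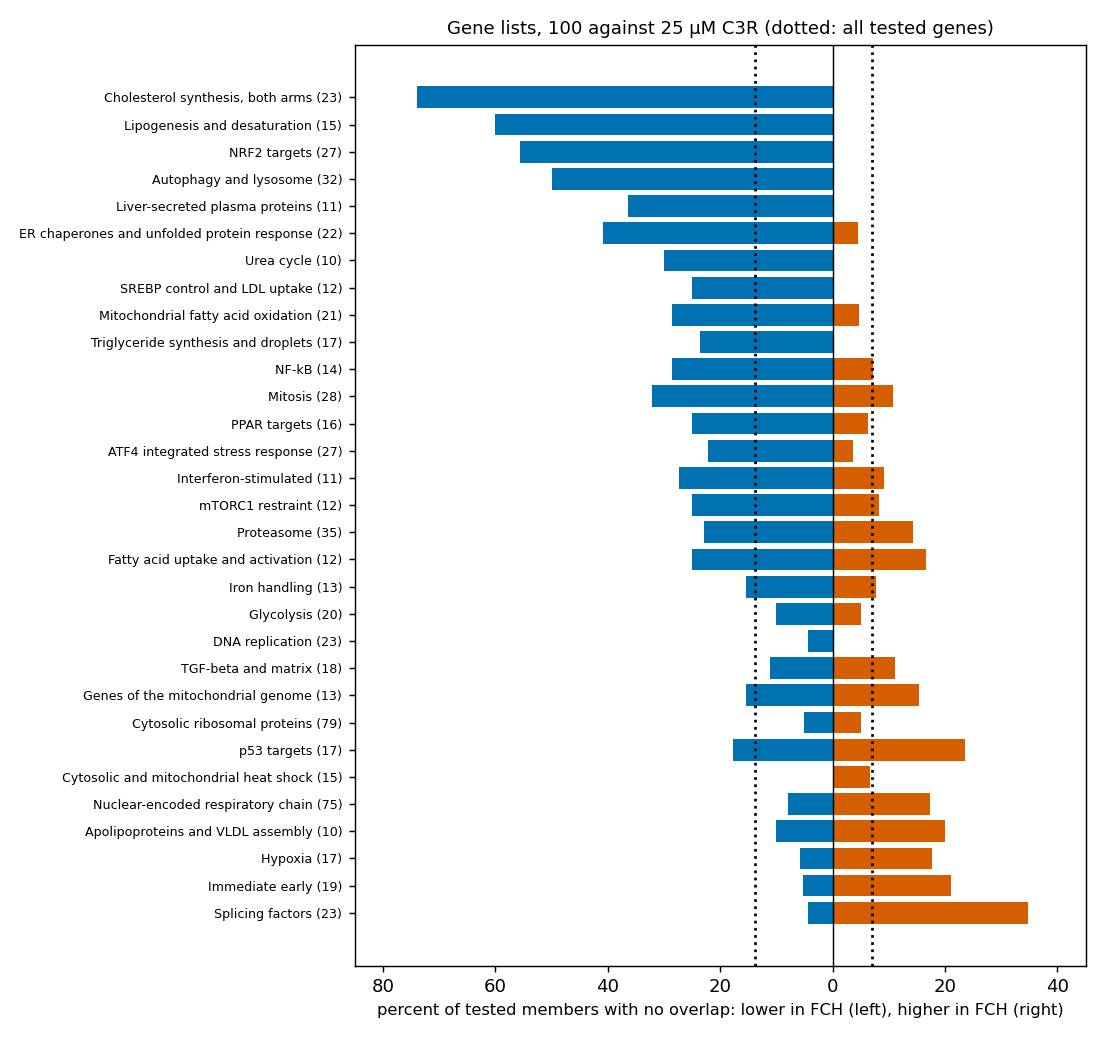
Percent of the tested members of each gene list whose FCH and FCL libraries did not overlap, lower in FCH to the left and higher in FCH to the right, with the number of tested members in brackets. Dotted lines mark 13.8% and 7.1%, the same shares over all 12950 tested genes. Cholesterol synthesis, lipogenesis, NRF2 targets and autophagy and lysosome reach farthest left and splicing factors farthest right.

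No member of the other lists was called on the deposited scale without the term for libraries 12 to 15. Under median-of-ratios scaling 2 proteasome genes, 1 mitosis gene and 1 glycolysis gene were called higher, against 43 of all 12950 genes. The counts of these other lists below are on the deposited scale. They stand against 13.8% of all tested genes wholly lower and 7.1% wholly higher, and 7613 of all 12950 genes differed by less than 0. Liver-secreted plasma proteins had 4 of 11 tested members wholly lower and none higher, and all 11 differed by less than 0. Genes of NF-kB signalling had 4 of 14 lower and 1 higher, and 12 of the 14 differed by less than 0. Mitochondrial fatty acid oxidation had 6 of 21 tested members wholly lower and 1 wholly higher, and PPAR targets 4 of 16 lower and 1 higher. The proteasome had 8 of 35 lower and 5 higher. Triglyceride synthesis and lipid droplet genes had 4 of 17 lower and none higher, and with the term 3 of the 17 were called lower (3.58% of all genes). Mitosis genes had 9 of 28 lower and 3 higher, while DNA replication genes had 1 of 23 lower and none higher. Nuclear genes of the respiratory chain had 6 of 75 lower and 13 higher, with a median of 0.10. Cytosolic ribosomal proteins had 4 of 79 lower and 4 higher, with a median of 0.07. With the term for libraries 12 to 15 the medians of these 2 lists were 0.46 and 0.51, against -0.24 over all genes, and 18 respiratory chain genes and 16 ribosomal protein genes were called higher (0.834% of all genes were called higher in that fit). Library 12, which sets the term, differed from the other FCM libraries by medians of -0.31 and -0.41 over these lists, against 0.21 over all tested genes. Genes of the mitochondrial genome, which held between 9.29% and 10.8% of the TPM in FCH libraries, against between 8.66% and 11.6% in FCL libraries, had 2 of 13 on each side.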

How the data were processed

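Messenger RNA of 15 cultures was sequenced, and the deposited table gives TPM for 63241 Ensembl genes. Per the series' design text, the authors aligned reads with HiSat2 and estimated expression with RSEM. Their versions, the gene annotation, and whether strand was used in counting are each not given in the sources used here. The deposited decimals show a mean-only empirical Bayes adjustment of FCH replicate 3 in 12775 genes, which no sample label mentions. Undoing it brought the other 14 libraries to within 0.00125 TPM of whole multiples of 0.01 TPM. For FCH replicate 3 the distance reached 0.0048 TPM, near the largest possible, so this does not check its undone values. The settings of the step were themselves fitted to this agreement. Adjusting again returned the deposited values to within 0.0972 TPM. FCH replicate 3 summed to 990018 TPM as deposited and to 1000004 TPM undone.

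All 15 libraries were fitted together on log2(TPM + 1), each group with its own mean, without covariates. The software was limma 3.58.1 (R 4.3.3), with moderated variances and an intensity trend, tested on simulated data first. FCH minus FCL was tested two-sided, with Benjamini-Hochberg adjustment over the 12950 genes with at least 1 TPM in at least 3 libraries. Standard errors and 95% intervals come from this model. TPM hold no depth, so counting error is not given. The rule for named genes took up to 8 called genes with a symbol in each direction whose groups did not overlap, filled up to 8 by the next smallest p, up to 2 called members of each list, and the lipid panel. Values of further list members illustrate each list's count. The members and the 42 gene lists were chosen with earlier results of these data known, and lists are described by counts and medians with no test of the list. Alternatives changed the scaling, pseudocount, filter, libraries, weights, block, batch term or threshold. Promoters are RefSeq's, matched by symbol. Some listed genes enter the counts and medians of their lists but are not reported here by name.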

Additional observations from a re-analysis of the deposited data

How the results depend on the processing

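The count of 10 calls, 5 higher and 5 lower in FCH, depended on the processing. Median-of-ratios scaling gave 58 calls (43 higher, 15 lower), quantile normalization 54 (33 and 21) and removing each library's trend over GC content and length 65 (36 and 29). A pseudocount of 0.1 gave 3 higher, no filter 5 calls (1 lower), a mean of at least 5 TPM 5 (3 and 2), FCH and FCL alone 29 (9 and 20), a minimum log2 change of 1 gave 6 (3 and 3) and an adjusted p under 0.1 gave 85 (41 and 44). Array weights, whose estimation did not converge, gave 5067 (2012 and 3055). Undoing the adjustment of FCH replicate 3 gave 2 (2 and 0), and a term for libraries 12 to 15 gave 571 (108 and 463), where the lone FCM replicate 3 sets the term. Leaving out the mitochondrial genome changed no count. Leaving out 1 library at a time gave 1 to 105 calls, 1 to 40 higher and 0 to 65 lower, and the extremes were FCH replicates 1 and 3 at 1 and FCM replicate 3 at 105. The cause was not tested. The replicate numbers did not pair the libraries: deviations of same-numbered FCH and FCL libraries correlated at -0.07, -0.05 and -0.02, and a replicate block gave 2 calls (2 higher, 0 lower).

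All 10 called genes kept their direction in every alternative in which they were tested, but many alternatives could not turn it. Leaving out an NC, FFA or FCM library, fitting FCH and FCL alone or changing the filter leaves the difference itself unchanged. The 10 genes were also chosen by their calls in the same data. In the lipid panel 4 genes turned, and list members that turned with the term are given beside their values. FGF21 was 0.070 with the term. FABP3 was 0.022 under median-of-ratios, 0.011 under quantile normalization, 0.71 with the term, and between -0.31 and 0.16 leaving out a library. PLIN2 was 0.057 and 0.014 under the scalings, 0.023 with a pseudocount of 0.1, 0.030 with the adjustment undone, 0.080 with GC content and length removed, and between -0.29 and 0.17 leaving out a library. ANGPTL4 was -0.095 with array weights and -0.39 with the term. The library number term and FCM replicate 3 limit every statement about FCH against FCL. Alternatives for the lists were chosen after seeing the data.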
